A study of Danio rerio with 8 samples.

Results

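The genes described here drive the cell division cycle: 50 listed genes of DNA replication, of the entry into the cycle and of mitosis. Their symbols were matched to the Ensembl zebrafish gene names, and capital forms without the zebrafish a or b suffix counted as a match. Of the listed symbols 49 found an ID among the 31953 gene IDs of the files, and they gave 52 IDs. The symbols MCM6, RRM2 and CCND2 each stand on 2 IDs, and prc1a and prc1b share the 2 IDs named PRC1. No ID of these files matched ube2c, which was not analysed here. By role, 20 IDs belong to S phase, 7 to the regulators of G1 and 25 to mitosis.

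RNA was sequenced from hearts of TU strain zebrafish (Danio rerio) at 21 days post fertilisation, with 3 libraries labelled control and 3 labelled zfpm1 mutant. The labels name no allele, clutch or treatment, and do not say whether a library is 1 fish or a pool. The p-values below therefore reflect no more than how far these libraries differ, and part of that may be technical. In addition, 1 control and 1 mutant library are labelled as whole embryos of 36 hours. zfpm1 encodes a zinc finger cofactor of GATA transcription factors, and the series was made to find genes downstream of it in embryos and in the maturing heart.

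A dividing cell copies its DNA in S phase and parts the copies in mitosis. Licensing factors load a ring of MCM proteins on each origin, and the ring is then activated as the helicase of the replication fork. Cyclin-dependent kinases drive each step, the spindle checkpoint holds back the separation of chromosomes, and motor proteins build the spindle and complete cytokinesis. In zebrafish the heart muscle goes on adding cells by division, and immature blood cells and thymocytes divide as well.

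The hearts gave 7614329 to 9909966 gene counts per library. Levels are given as CPM, gene counts divided by the TMM-scaled library size, and differences as the log2 ratio mutant to control, each with a standard error (SE). The targeted gene ZFPM1 had 419, 344 and 423 counts in control and 558, 471 and 956 in mutant hearts, or 0.50 on the log2 scale (SE 0.23, edgeR adjusted p 0.241), so its transcript does not check the genotype labels. The files labelled as embryo repeat the read totals of 2 heart libraries: that of the control embryo equals mutant heart replicate 1 at 19276348 reads, and that of the mutant embryo equals control heart replicate 1 at 22649056. They were not used as independent samples. Heart muscle markers over 6 IDs summed to 28879 to 37962 CPM in control and 12485 to 22475 CPM in mutant hearts. In 4 of the 6 every mutant heart lay below every control heart, where 12.9% of all genes tested did. None of the 6 was called by edgeR, and none had an unadjusted edgeR p under 0.05. DESeq2 called 2 lower, against 3.35% of its genes. In bulk tissue fewer cells of a type and less RNA per cell cannot be told apart.

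Mitosis genes lay lower in mutant hearts on average, by more than S phase genes, but the control libraries disagreed among themselves. Of the 51 IDs that passed the filter on low counts, 47 had a log2 fold change below 0, against 50.6% of all 16707 genes tested. Only 1 passed the test as lower and none as higher, where 2.42% of all genes tested were called lower, 7.02% higher and 9.43% either way. At an unadjusted p under 0.05, 18 IDs were lower and 1 was higher, where all genes gave 9.14% and 14.5%. DESeq2 called 8 of the IDs lower and none higher, against 3.35% and 8.1% of its genes. The median log2 fold change was -0.61 over 19 S phase IDs, -1.10 over 25 mitosis IDs and -0.49 over 7 G1 regulators, beside -0.01 over all genes tested. With library size alone as scaling these medians were -0.36, -0.84 and -0.25, beside 0.25 over all genes. Then 13 of 19 S phase IDs and 25 of 25 mitosis IDs lay below 0, and 3 and 4 were lower at an unadjusted p under 0.05. The shares of all genes in that fit are not given here, so these counts cannot be set against them. The remaining ID, MCM6 ENSDARG00000033231, held 2 counts in control replicate 1 and none elsewhere, and was not tested.

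**Figure D1:**
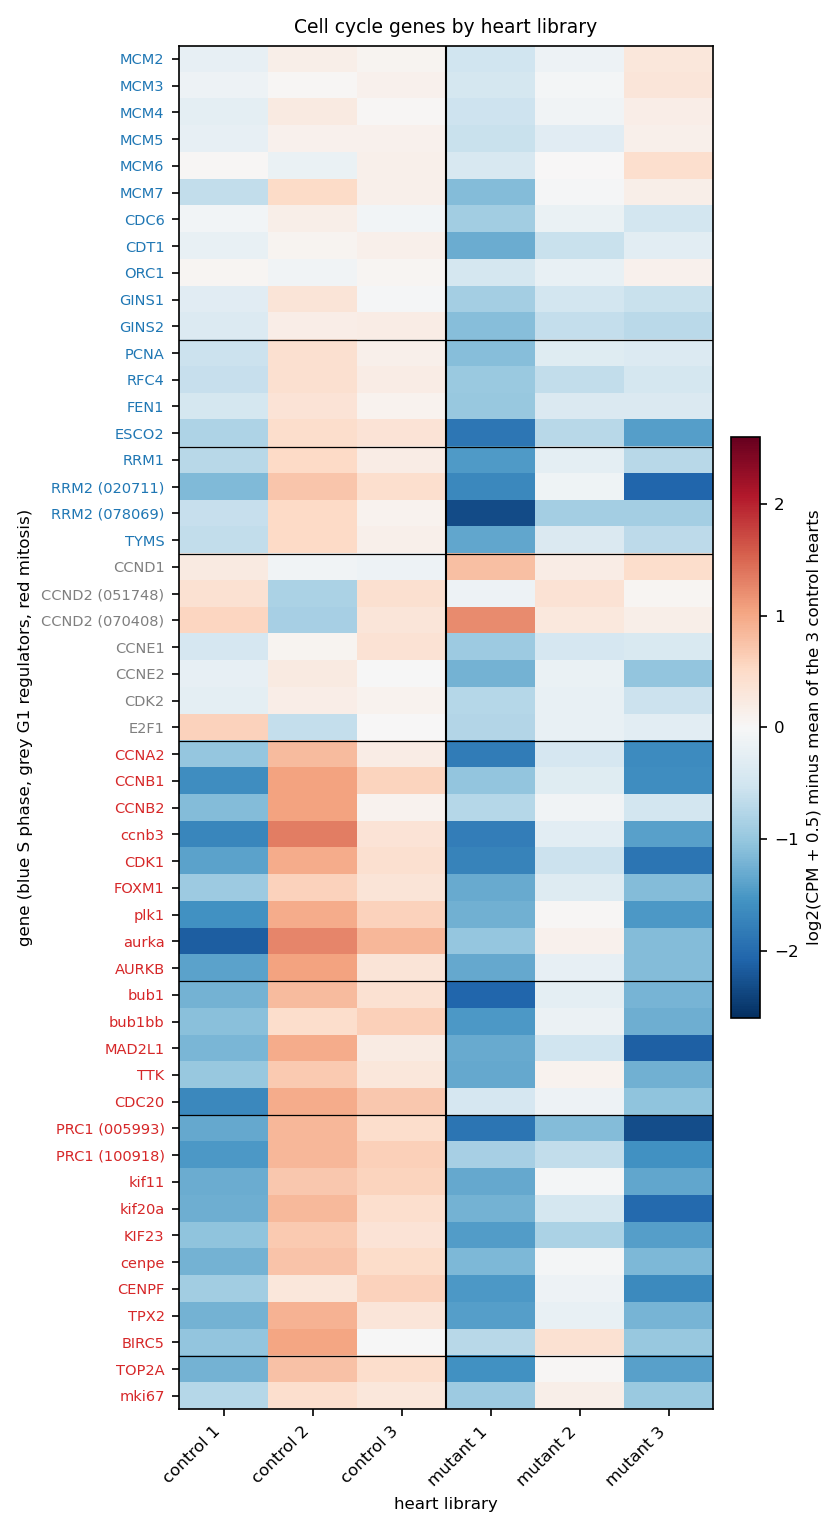
Level of each tested gene (rows) in each heart library (columns), as log2(CPM + 0.5) minus the mean of the 3 control hearts, with blue below and red above that mean. Among mitosis genes control 2 and control 3 are red or pale, while control 1 is blue like mutant 1 and mutant 3.

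**Figure D2:**
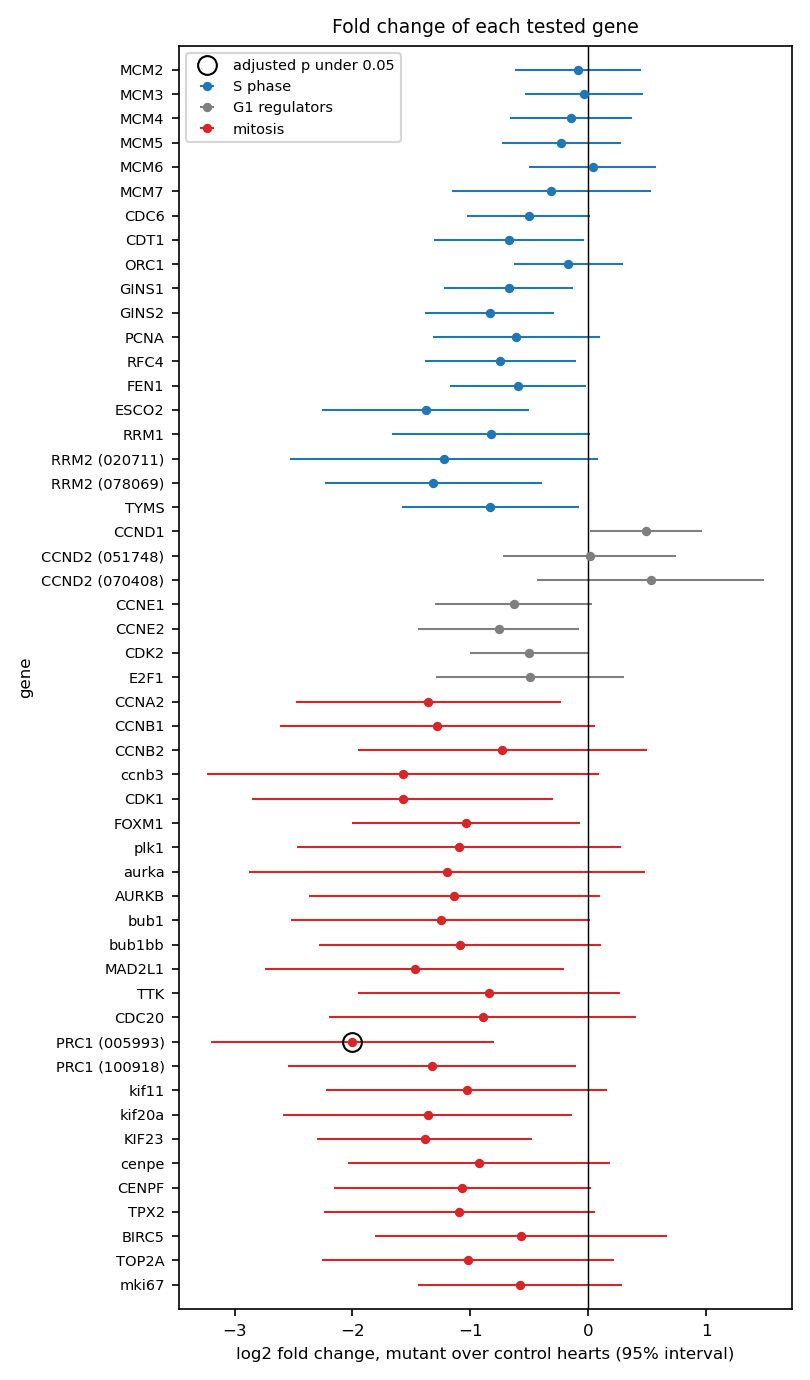
Fitted log2 fold change of mutant over control hearts (points) with its 95% interval (bars) for the 51 tested IDs, blue for S phase, grey for G1 regulators and red for mitosis. The 25 mitosis points all lie below 0 with wide intervals, and the only ringed point, past the adjusted threshold, is PRC1 ENSDARG00000005993.

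The MCM2 to MCM7 subunits of the replicative helicase lay near equal levels, with a median log2 fold change of -0.12 over 6 tested IDs. MCM2 (ENSDARG00000102798) had 185, 237 and 226 CPM in the control hearts, in replicate order, and 150, 197 and 263 CPM in the mutant hearts. The mutant hearts thus held both the lowest and the highest value. Its fitted log2 fold change of -0.09 (SE 0.24, adjusted p 0.874) had a 95% interval from -0.62 to 0.45. MCM5 (ENSDARG00000019507) stood at 147, 183 and 183 CPM in control and at 114, 138 and 186 CPM in mutant hearts (log2 -0.23, SE 0.22, adjusted p 0.606). The other 4 ran from -0.31 (MCM7) to 0.04 (MCM6 ENSDARG00000057683), with adjusted p from 0.683 to 0.954. With library size alone as scaling, where the median of all genes was 0.25, MCM2, MCM3, MCM4 and MCM5 turned to 0.16, 0.21, 0.10 and 0.02, so their sign depends on the scaling.

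Among the factors that load and activate the ring, GINS2, GINS1, CDT1 and CDC6 had lower log2 fold changes than any ring subunit, and ORC1 did not. The difference was not tested. GINS2 (ENSDARG00000002304) belongs to the GINS complex, a partner of MCM in the active helicase. It stood at 20.8, 30.5 and 30.6 CPM in control and at 12.2, 17.3 and 16.4 CPM in mutant hearts. The groups did not overlap, and the log2 fold change of -0.83 (SE 0.24) missed the threshold at an adjusted p of 0.0668. GINS1 (ENSDARG00000007624) stood at 17.9, 28.2 and 21.6 CPM in control and 11.9, 15.9 and 14.6 CPM in mutant hearts, again without overlap (log2 -0.67, SE 0.24, adjusted p 0.130). CDT1 and CDC6, which bring the MCM ring to origins, also had groups without overlap, at log2 fold changes of -0.67 (SE 0.28, adjusted p 0.188) and -0.50 (SE 0.23, adjusted p 0.229). CDT1 held 20.9 to 26.5 CPM in control and 9.62 to 19.9 CPM in mutant hearts, and CDC6 30.9 to 36.4 and 17.1 to 28.9 CPM. ORC1, of the origin recognition complex, was at -0.17 (SE 0.21, adjusted p 0.692), and at 0.07 with library size alone as scaling. In all, 5 of 19 S phase IDs had every mutant heart below every control heart, where 12.9% of all genes did.

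At the fork, PCNA (ENSDARG00000054155), the sliding clamp of the DNA polymerases, stood at 377, 740 and 611 CPM in control and at 256, 444 and 433 CPM in mutant hearts. Control replicate 1 lay below mutant replicates 2 and 3. The log2 fold change was -0.61 (SE 0.31, adjusted p 0.283). FEN1 (ENSDARG00000011404), which trims the flaps of Okazaki fragments, stood at 69.6, 122 and 101 CPM in control and 47.9, 73.2 and 72.7 CPM in mutant hearts (log2 -0.59, SE 0.26, adjusted p 0.201). RFC4, a subunit of the clamp loader, was at -0.74 (SE 0.28, adjusted p 0.149). ESCO2 (ENSDARG00000014685), which acetylates cohesin to hold sister chromatids together, had the lowest log2 fold change among S phase IDs. It stood at 37.1, 89.2 and 83.6 CPM in control and at 17.3, 39.6 and 23.7 CPM in mutant hearts, where control replicate 1 lay just below mutant replicate 2. Its log2 fold change of -1.38 (SE 0.39) had an adjusted p of 0.0604, and DESeq2 called it at 0.00487.

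Genes that supply nucleotides lay lower in value as well, with a median of -1.03 over 4 IDs. RRM1 (ENSDARG00000014017), the large subunit of ribonucleotide reductase, stood at 154, 360 and 288 CPM in control and at 90.4, 210 and 152 CPM in mutant hearts (log2 -0.82, SE 0.37, adjusted p 0.221). Both IDs of the small subunit RRM2 lay lower in value. RRM2 ENSDARG00000078069 had 63.0, 138 and 102 CPM in control against 18.7, 51.4 and 51.4 CPM in mutant hearts, with no overlap (log2 -1.31, SE 0.41, adjusted p 0.0830, and 0.00980 with DESeq2). RRM2 ENSDARG00000020711 had 49.8, 183 and 151 CPM in control against 34.6, 104 and 26.2 CPM in mutant hearts (log2 -1.22, SE 0.58, adjusted p 0.243). In this second ID mutant replicate 2 was 3.41 times the mean of the other mutant hearts, the widest such ratio among all members. TYMS, thymidylate synthase, stood at 59.7 to 134 CPM in control and 36.3 to 72.0 CPM in mutant hearts (log2 -0.83, SE 0.33, adjusted p 0.173). Reads not aligned uniquely were left out of the counts, so both RRM2 IDs may be undercounted where their sequences are alike. How alike they are was not examined.

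The regulators of G1 shared no direction. D-type cyclins start the cycle by activating CDK4 and CDK6. CCND1 (ENSDARG00000101637) stood at 61.2, 48.2 and 46.9 CPM in control and at 89.1, 59.2 and 71.4 CPM in mutant hearts, with the groups overlapping only through control replicate 1 and mutant replicate 2 (log2 0.49, SE 0.21, adjusted p 0.198). CCND2 ENSDARG00000051748 stood at 48.4, 20.3 and 48.9 CPM in control and 33.3, 47.5 and 37.9 CPM in mutant hearts (log2 0.01, SE 0.32, adjusted p 0.990). The other CCND2 ID, ENSDARG00000070408, was at 0.53 (SE 0.43, adjusted p 0.512). The symbols do not tell ccnd2a from its paralog. E-type cyclins, which with CDK2 open S phase, lay lower in value, CCNE1 at -0.63 (SE 0.29), CCNE2 at -0.76 (SE 0.30) and CDK2 at -0.50 (SE 0.22), with adjusted p from 0.168 to 0.236. E2F1, a transcription factor of S phase genes, was at -0.49 (SE 0.35, adjusted p 0.449). No G1 regulator passed edgeR's or DESeq2's test, and 2 were lower and 1 higher at an unadjusted edgeR p under 0.05. At that p 9.14% of all genes tested were lower and 14.5% higher.

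Among mitotic kinases and cyclins, a list that also holds the transcription factor FOXM1, the 9 IDs had log2 fold changes from -1.57 to -0.73. None passed edgeR's test. At an unadjusted p under 0.05, 3 were lower (CDK1, CCNA2 and FOXM1), where 9.14% of all genes tested were. DESeq2 called 2, CDK1 and CCNA2, against 3.35% of its genes called lower. CDK1 (ENSDARG00000087554), the kinase that starts mitosis, stood at 25.7, 133 and 90.2 CPM in control and at 19.9, 46.0 and 17.8 CPM in mutant hearts. All mutant hearts lay below control replicates 2 and 3, but control replicate 1 lay among the mutants. The log2 fold change was -1.57 (SE 0.56) with an adjusted p of 0.129, and 0.0170 with DESeq2. CCNA2 (ENSDARG00000011094), the cyclin of S phase and of entry into mitosis, stood at 27.4, 99.0 and 63.3 CPM in control and 15.4, 41.2 and 17.5 CPM in mutant hearts (log2 -1.36, SE 0.50, adjusted p 0.137). The B cyclins bind CDK1 and are destroyed as mitosis ends. CCNB1 (ENSDARG00000051923) had 11.4, 74.7 and 54.0 CPM in control and 17.5, 28.9 and 11.4 CPM in mutant hearts, so control replicate 1 was as low as the lowest mutant (log2 -1.28, SE 0.59, adjusted p 0.232). CCNB2 and ccnb3 were at -0.73 (SE 0.54) and -1.57 (SE 0.73), with adjusted p of 0.472 and 0.238.

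In the kinases that act on spindle and centrosome, all mutant hearts again lay below control replicates 2 and 3, as in 20.5% of all genes tested. This again sets aside control replicate 1, chosen after its values were seen. In plk1 and aurka control replicate 1 was the lowest of all 6 hearts. plk1 stood at 15.5, 91.9 and 71.8 CPM in control and 19.4, 48.3 and 16.3 CPM in mutant hearts (log2 -1.10, SE 0.61, adjusted p 0.320). aurka, the Aurora kinase of the spindle poles, had the deepest gap between controls, at 1.71 CPM in replicate 1 against 22.9 and 17.3 CPM in replicates 2 and 3, and stood at 4.36, 10.02 and 3.95 CPM in mutant hearts (log2 -1.20, SE 0.74, adjusted p 0.381). AURKB, of the chromosomal passenger complex, was at -1.13 (SE 0.54, adjusted p 0.251). FOXM1, a transcription factor of mitosis genes, was at -1.04 (SE 0.43, adjusted p 0.183). Its counts of 79 in control replicate 1 and 66 in mutant replicate 1 were 3.43 and 5.08 times those in the matching embryo-labelled files, where the median gene had 0.504 and 0.503, and the cause was not tested. In the RefSeq annotation of GRCz12tu foxm1 overlaps the gene rhno1. kif20a, which overlaps cdc23 there, had 0.762 and 0.794 of the embryo-labelled counts. The other members outside 0.4 to 0.7 were CDC20 and aurka in 1 pair, at 0.388 and 0.311, and bub1 and ccnb3 in the other, at 0.392 and 0.316. In that annotation CDC20, aurka, bub1 and ccnb3 overlap no gene. Members inside the range overlap genes too, such as ESCO2 with 14 (0.506 and 0.534) and MCM2 with 9 (0.480 and 0.518). Whether overlap bears on these ratios was not tested.

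The list of checkpoint genes, which hold back anaphase until all chromosomes are attached, also holds CDC20, which they restrain. In each of its 5 IDs all mutant hearts lay below control replicates 2 and 3, as in 20.5% of all genes tested. That count sets aside control replicate 1, chosen after its values were seen. With all control hearts no ID of the list separated the genotypes. bub1 (ENSDARG00000077029) stood at 13.8, 58.8 and 43.4 CPM in control and 7.50, 27.4 and 13.9 CPM in mutant hearts (log2 -1.25, SE 0.56, adjusted p 0.217). TTK (ENSDARG00000041361), the checkpoint kinase also known as MPS1, stood at 15.8, 51.4 and 39.3 CPM in control and 12.4, 34.0 and 13.1 CPM in mutant hearts (log2 -0.84, SE 0.49, adjusted p 0.346). MAD2L1 was at -1.47 (SE 0.56, adjusted p 0.152), and DESeq2 called it at 0.0436. bub1bb was at -1.08 (SE 0.53, adjusted p 0.258). CDC20, which the checkpoint restrains and which then activates the anaphase-promoting complex, was at -0.90 (SE 0.58, adjusted p 0.396). None of these 5 IDs passed edgeR's test, 1 had an unadjusted p under 0.05, and DESeq2 called 1. The shares of all genes in these last 2 counts were 9.14% and 3.35% lower.

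The only member called was PRC1, which bundles the microtubules of the spindle midzone. PRC1 ENSDARG00000005993 stood at 14.8, 68.9 and 52.3 CPM in control and at 9.74, 17.1 and 7.22 CPM in mutant hearts, a mean of 45.4 ± 27.7 against 11.4 ± 5.14 CPM (SD, n = 3 each). Mutant replicate 2 lay just above control replicate 1, so the groups overlapped. The log2 fold change of -2.00 (SE 0.53) had an edgeR adjusted p of 0.0483. Leaving out control replicate 2, control replicate 3 or any 1 mutant ended the call, with adjusted p up to 0.157, and so did library size alone as scaling, at 0.0676. The other PRC1 ID, ENSDARG00000100918, stood at 7.09, 38.3 and 32.5 CPM in control and 11.3, 13.2 and 6.65 CPM in mutant hearts (log2 -1.33, SE 0.54, adjusted p 0.178).

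Other spindle genes had log2 fold changes from -1.39 to -0.57. KIF23 (ENSDARG00000014943), a kinesin of the midzone that works with PRC1 in cytokinesis, stood at 35.0, 118 and 94.0 CPM in control and at 26.3, 41.2 and 26.8 CPM in mutant hearts (log2 -1.39, SE 0.40, adjusted p 0.0681, and 0.00564 with DESeq2). kif20a, another midzone kinesin, stood at 13.7, 60.7 and 45.9 CPM in control and 14.2, 24.6 and 7.99 CPM in mutant hearts (log2 -1.36, SE 0.54, adjusted p 0.169). kif11, the kinesin that pushes the spindle poles apart, and TPX2, which activates Aurora A at the spindle, were at -1.03 (SE 0.53, adjusted p 0.281) and -1.09 (SE 0.51, adjusted p 0.235). The kinetochore genes cenpe and CENPF were at -0.92 (SE 0.49) and -1.07 (SE 0.48), with adjusted p of 0.299 and 0.222. BIRC5, the survivin of the passenger complex, was at -0.57 (SE 0.55, adjusted p 0.599).

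TOP2A (ENSDARG00000024488), the topoisomerase that untangles sister chromatids, stood at 67.4, 268 and 216 CPM in control and at 52.5, 161 and 58.7 CPM in mutant hearts (log2 -1.02, SE 0.55, adjusted p 0.303). mki67 (ENSDARG00000091150), the common marker of cycling cells, stood at 83.8, 190 and 173 CPM in control and 72.2, 155 and 71.8 CPM in mutant hearts. The log2 value of -0.58 (SE 0.38, adjusted p 0.409) had a 95% interval from -1.44 to 0.28. In both genes control replicate 1 lay beside mutant replicates 1 and 3, and mutant replicate 2 lay nearer to control replicates 2 and 3.

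S phase and mitosis genes differed in how far libraries of the same genotype stood apart. The 20 S phase IDs summed to 1805, 3085 and 2695 CPM in control and to 1250, 2054 and 2136 CPM in mutant hearts. The 25 mitosis IDs summed to 484, 1887 and 1473 CPM in control and to 426, 966 and 414 CPM in mutant hearts. The mean sum in mutants was 0.717 of that in controls for S phase and 0.470 for mitosis, and 0.966 for the 7 G1 regulators, which summed to 176 to 212 CPM in control and 182 to 201 CPM in mutant hearts. The sum of mitosis over that of S phase was 0.268, 0.612 and 0.546 in control and 0.341, 0.470 and 0.194 in mutant hearts, so this ratio overlapped between genotypes. A median mitosis ID had an SD of log2(CPM + 0.5) of 1.096 in control and 0.72 in mutant hearts. The same was 0.32 and 0.40 for S phase IDs and 0.32 and 0.30 for all genes tested.

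**Figure D3:**
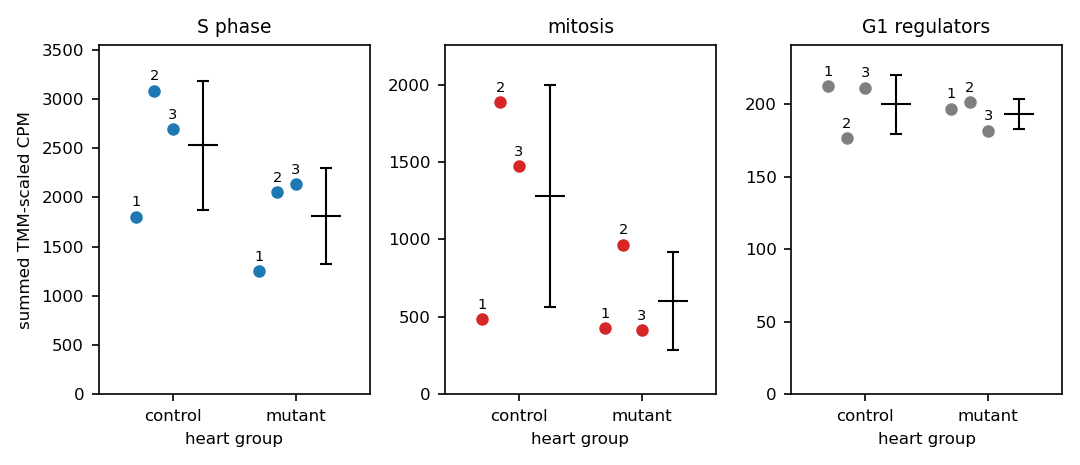
Summed TMM-scaled CPM of the S phase, mitosis and G1 regulator IDs in each heart library (points, numbered by replicate), with the mean and SD of each group beside them. The mitosis sum of control 1, at 484 CPM, lies near mutant 1 and mutant 3, while the G1 sums of all 6 libraries lie between 176 and 212 CPM.

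Control replicate 1 was the lowest control in 25 of 25 mitosis IDs and in 16 of 19 S phase IDs, where it was the lowest in 37.0% of all genes. It lay under 0.5 of the mean of the other controls in 25 mitosis IDs and 3 S phase IDs, against 8.25% of all genes. The median ratio to that mean was 0.271 in mitosis, 0.681 in S phase and 1.29 in G1 regulators. In mutants replicate 2 was the highest in 25 of 25 mitosis IDs and 10 of 19 S phase IDs, against 31.4% of all genes, with a median ratio to the mean of the other mutants of 2.31 in mitosis and 1.21 in S phase. No mitosis ID separated the genotypes, but in 24 of 25 all mutant hearts lay below both control replicates 2 and 3, as did 12 of 19 S phase IDs. Of all genes tested 20.5% did, and this count sets aside control replicate 1, which was chosen after its values were seen.

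**Figure D4:**
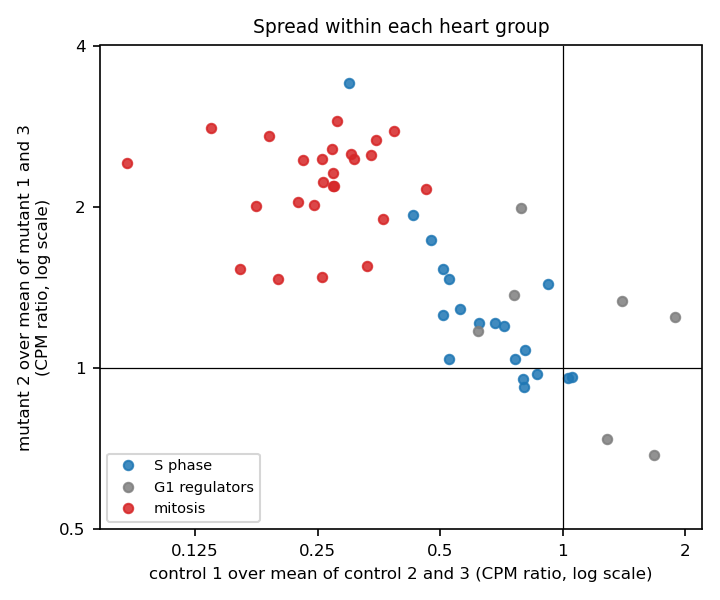
For each tested ID, the CPM of control 1 over the mean of the other controls (x axis, log scale) and the CPM of mutant 2 over the mean of the other mutants (y axis, log scale), blue for S phase, grey for G1 regulators and red for mitosis. The mitosis points lie at the upper left, from 0.0852 to 0.462 on the x axis and from 1.47 to 2.89 on the y axis.

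The number of calls depended on control replicate 1. Without it 15 members were called lower, 12 of mitosis and 3 of S phase, where 1.87% of all genes were called lower and 4.18% higher. The mitosis median was then -1.56 and the S phase median -0.80. Leaving out the lowest control widens the difference by construction, and that library is also one of the 2 that match embryo-labelled files. Without both matched libraries, those numbered 1, 15 members were called lower, 11 of mitosis and 4 of S phase. Of all genes, 2.24% were then called lower and 5.18% higher. That fit also leaves out control replicate 1, so the same limit applies to it. The 11 members called in both fits are therefore no independent check. In that fit CDK1 was at -1.79 (adjusted p 0.0205), CCNB1 at -1.66 (adjusted p 0.0271), KIF23 at -1.62 (adjusted p 0.00358) and PRC1 ENSDARG00000005993 at -2.30 (adjusted p 0.00426). Without control replicate 2 or 3, or mutant replicate 1 or 3, no member was called. Without mutant replicate 2 the mitosis median was -1.66, and 2 members were called, ESCO2 and CCNE2. Mutant replicate 2 was the highest mutant in 25 of 25 mitosis IDs, so leaving it out also widens their difference by construction. The share of all genes called without that library is not given here. The mitosis median stayed below that of S phase in these fits, with a gap of 0.24 to 0.95 when 1 library was left out. The widest gap came without mutant replicate 2. The gap itself was not tested.

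**Figure D5:**
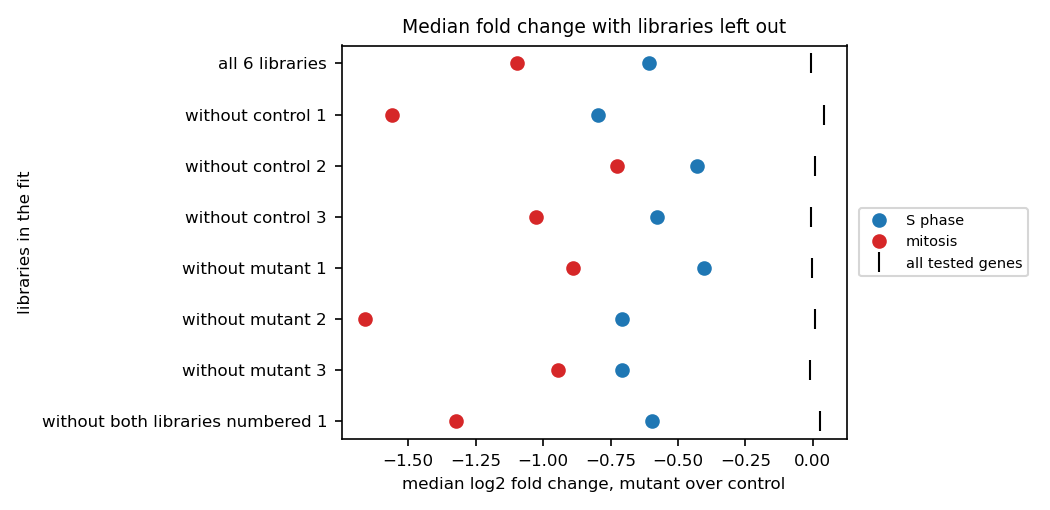
Median log2 fold change over S phase IDs (blue), mitosis IDs (red) and all genes tested (black bars), for the fit with all 6 libraries and for each fit without the libraries named. The red point lies left of the blue point in every fit, and furthest left, at -1.66, without mutant 2, the highest mutant in every mitosis ID.

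Genes of the same pathways that are not members also lay lower in value. Of 47 other replication IDs, such as the polymerase, RPA and ORC subunits, all 47 had a log2 fold change below 0, with a median of -0.50. None passed edgeR's test, 17 were lower at an unadjusted p under 0.05, and DESeq2 called 4 lower. Of all genes, 9.14% were lower at that p, and DESeq2 called 3.35% of its genes lower. With library size alone as scaling 40 of 47 lay below 0. With TMM 50.6% of all genes tested lay below 0, and the share with library size alone is not given here. Of 45 tested IDs of other mitosis genes, such as the condensin, NDC80 and kinesin genes, all 45 lay below 0 under either scaling, with a median of -0.96, and of -0.71 with library size alone. None passed edgeR's test, 20 were lower at an unadjusted p under 0.05, DESeq2 called 7 lower, and 11 were called without control replicate 1. The shares of all genes in these 3 counts were 9.14%, 3.35% and 1.87%. Leaving out control replicate 1 widens the difference by construction where it is the lowest control. That replicate was the lowest control in 44 of the 45.

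Among brakes of the cycle, a list of 20 tested IDs with CDK inhibitors, pocket proteins and the DREAM complex, 1 rose and none fell by edgeR's test. That test called 7.02% of all genes higher and 2.42% lower. The median log2 fold change was -0.42, with 17 of 20 below 0, and -0.18 with 12 of 20 below 0 when library size alone was the scaling. Of all genes tested 50.6% lay below 0 in the first of these fits, and the share in the second is not given here. At an unadjusted p under 0.05, 6 were lower and 2 higher, where all genes gave 9.14% and 14.5%. DESeq2 tested 23 IDs of the list and called 2 lower and 1 higher, against 3.35% and 8.1% of its genes. BTG2 (ENSDARG00000020298), an antiproliferative gene and p53 target, stood at 28.4, 42.8 and 58.1 CPM in control and rose to 102, 80.8 and 120 CPM in mutant hearts (log2 1.23, SE 0.28, adjusted p 0.0265). The groups did not overlap. The call was lost without control replicate 1 or 2 and without mutant replicate 1 or 3, where adjusted p ran up to 0.0814. The CDK inhibitor cdkn1a was at 0.97 (SE 0.35, adjusted p 0.136). Its groups overlapped, with mutant replicate 2 at 14.1 CPM and control replicate 1 at 15.7 CPM. BTG2 and cdkn1a were among the 3 tested IDs of this list above 0, against the direction of the other 17.

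Of 15 tested IDs of other G1 and transcription factors, 3 fell and none rose by edgeR's test, which called 2.42% of all genes lower and 7.02% higher. The median log2 fold change was 0.01, with 7 of 15 below 0. DESeq2 called 3 lower and 2 higher, against 3.35% and 8.1% of its genes. With library size alone as scaling 1 was called lower and 2 higher, and the shares of all genes in that fit are not given here. Of the 15 IDs, 3 had every mutant heart above every control heart and 4 had every one below. Of all genes tested, 16.8% and 12.9% did. MYB and MYC ENSDARG00000045695, named after their values were seen, were among the 3. MYB, a regulator of blood progenitors, had 6.85 to 16.5 CPM in control and 19.6, 81.4 and 25.1 CPM in mutant hearts, highest in replicate 2 (log2 1.75, SE 0.55, adjusted p 0.0866). That MYC ID had 3.91, 8.02 and 5.93 CPM in control and 11.3, 22.96 and 11.8 CPM in mutant hearts (log2 1.37, SE 0.38, adjusted p 0.0581). Values of the other ID named MYC, ENSDARG00000007241, are not given here, and it was not called. TFDP1 ENSDARG00000019293, a dimer partner of E2F proteins, fell from 92.2, 89.0 and 80.6 CPM in control to 39.4, 40.3 and 44.3 CPM in mutant hearts, with a narrow spread in both groups (log2 -1.08, SE 0.17, adjusted p 0.00517). It was called in each fit that left out 1 library, with adjusted p up to 0.0298. Control replicate 1 was here the highest control, in contrast to the mitosis genes. The other ID named TFDP1, ENSDARG00000016304, was not called, and its values are not given here. tfdp2 fell from 23.2 to 34.6 CPM in control to 10.6 to 17.3 CPM in mutant hearts (log2 -1.06, SE 0.26, adjusted p 0.0350). MYBL2 (ENSDARG00000032264), B-Myb, which acts with FOXM1 on mitosis genes, fell from 38.0, 71.8 and 65.1 CPM to 14.7, 30.2 and 27.0 CPM (log2 -1.28, SE 0.32, adjusted p 0.0403). The calls of tfdp2 and MYBL2 were lost in fits without 1 library, with adjusted p up to 0.100 and 0.152, and with library size alone as scaling, at 0.0603 and 0.0588.

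Markers of other cell types also differed between these libraries, not all in the order seen for mitosis genes. Their part in the results was not tested. Of all genes tested, edgeR called 2.42% lower and 7.02% higher. Lymphoid markers over 7 IDs summed to 20.8 to 35.9 CPM in control hearts, and to 12.2, 513 and 23.2 CPM in the mutant hearts, with none of the 5 tested called by edgeR. At an unadjusted edgeR p under 0.05, 2 were higher, and DESeq2 called 1 of the 2 it tested higher. The recombinase gene RAG1, which developing lymphocytes express, stood at 411 CPM in mutant replicate 2, against 2.91 and 9.82 CPM in the other mutant hearts and 9.71 to 19.7 CPM in control hearts. That is the mutant library with the highest level of every tested mitosis member. Red cell markers over 8 IDs summed to 5680 to 9464 CPM in control and 39.2 to 112 CPM in mutant hearts, and 7 of 7 tested fell. In control replicate 1, the low control for mitosis genes, their sum was the highest, at 9464 CPM, while the globin genes split. hbaa1 stood at 5265 CPM there against 2249 and 982 CPM in control replicates 2 and 3, and hbae3 at 348 CPM against 2644 and 1463 CPM. gata1a, a regulator of red cell precursors, stood at 25.1, 40.8 and 22.2 CPM in control and 4.14, 15.1 and 4.43 CPM in mutant hearts. These genes do not stand for the whole list. Of its 7 tested IDs, control replicate 1 was the lowest control in 1, and mutant replicate 2 was the highest mutant in 2.

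Myeloid markers over 5 IDs summed to 62.6 to 93.1 CPM in control and 335 to 369 CPM in mutant hearts, with 5 of 5 called higher. Liver markers over 6 IDs summed to 115 to 131 CPM in control and 1998 to 3541 CPM in mutant hearts, with 6 of 6 called higher and HNF4A at 0 in all control hearts. Gut epithelium markers over 4 IDs summed to 5.50 to 28.7 CPM in control and 29.0 to 138 CPM in mutant hearts, with 1 of 3 tested called higher. Endothelial markers over 4 IDs summed to 620 to 1034 CPM in control and 645 to 695 CPM in mutant hearts, highest in control replicate 1. None of the 4 was called by edgeR or DESeq2, and 1 was lower at an unadjusted edgeR p under 0.05. Germ cell markers over 5 IDs summed to at most 1.73 CPM in any library, with DAZL at 0 in control hearts and NANOS3 and SYCP3 at 0 in mutant hearts.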

How the data were processed

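The values deposited by the authors are raw counts of reads over genes, not normalised. HTSeq 0.6.1p1, TopHat2 2.2.1, Bowtie2 2.2.3, FastQC 0.11.5, bcl2fastq and the build GRCz10 are named, per the submitters' processing notes. Per the labels' protocols, libraries were made from oligo(dT)-selected RNA with a TruSeq kit, and they name no step that marks the strand. Neither HTSeq's strand option nor its gene annotation is stated (not given in the sources used here). In heart files 42.4% to 48.8% of all reads listed lay in no annotated feature, against 10.0% and 9.53% in the embryo-labelled files. These and the other unassigned lines were left out.

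The 6 heart libraries were fitted with edgeR 4.0.16 in R 4.3.3 (filterByExpr with a minimum count of 10, TMM, quasi-likelihood F test with genotype alone in the model). A gene was called at a p under 0.05 after Benjamini-Hochberg adjustment over all 16707 genes. Adjusted p-values are from this fit unless DESeq2 1.42.0, an alternative, is named. CPM was not divided by gene length, so levels are compared between libraries only. On simulated counts for 16707 genes, 10 of 100 genes shifted 2-fold and 63 of 100 shifted 4-fold were recovered, with 7 false calls.

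The members and lists were chosen with earlier results of these data known. Values by library are given for called members, for up to 2 members per role with the highest mean CPM where fewer than 2 were called, and for others chosen after their values were seen. Other lists give up to 4 called genes. Planned promoter motifs could not be searched without sequences. Alternatives were another scaling, tool or filter, libraries left out, and a replicate block.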

Additional observations from a re-analysis of the deposited data

How the results depend on the processing

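Tested members had 14 to 5999 counts per library, and counting error was not separated from the spread between libraries. With 1 library left out, the count of all genes called ran from 604 to 1302 (1576 with all), of higher genes from 443 to 1035 and of lower genes from 161 to 328. Members called lower ran from 0 to 15, mitosis members from 0 to 12, S phase members from 0 to 3 and G1 regulators from 0 to 1; 15 and 12 came without control replicate 1. Without both libraries numbered 1, a fit that also lacks control replicate 1, the counts were 15 members, 11 of mitosis and 4 of S phase. Library size alone called 236 genes lower and 0 members, 0 of mitosis. DESeq2 called 665 genes lower and 8 members, 5 of mitosis and 3 of S phase. Without a filter 4 members were called, 2 of mitosis and 2 of S phase, and the share of all genes called in that fit is not given here. No member was called higher in any of these fits.

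Same-numbered libraries had correlations of deviations from their group means of 0.10, 0.22 and -0.08. With 3 libraries a group these values cannot decide whether the numbers pair the samples, and the sample titles do not say. With the replicate block 9 members were called lower, 5 of S phase and 4 of mitosis, and the mitosis median was -0.99. The share of all genes called with that block is not given here, so the 9 calls cannot be set against it.

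Signs turned for genes near 0. With library size alone MCM2, MCM3, MCM4, MCM5 and ORC1 were at 0.16, 0.21, 0.10, 0.018 and 0.074. Without both libraries numbered 1 MCM2, MCM3 and E2F1 were at 0.0027, 0.088 and 0.054. CCND2 ENSDARG00000051748 was at -0.0004 with RLE scaling, -0.0070 with DESeq2 and -0.0072 without a filter. With 1 library left out MCM2 ran from -0.32 to 0.10, MCM3 from -0.25 to 0.15, MCM4 from -0.33 to 0.042, MCM6 from -0.21 to 0.24, MCM7 from -0.58 to 0.0065, CCND2 ENSDARG00000051748 from -0.31 to 0.19 and BIRC5 from -1.12 to 0.11. None of these values was called, and the cause was not tested.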

Other observations

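In the file labelled control embryo the S phase, mitosis and G1 regulator IDs held 1504, 506 and 237 CPM of gene counts without TMM. In the file labelled mutant embryo they held 1746, 450 and 194 CPM on the same scale. These files repeat the read totals of heart libraries of the opposite genotype label, so the values are not taken as separate embryo observations. The counts of reads not aligned uniquely were identical as well. They were 2130930 in control embryo and mutant heart replicate 1, and 2907502 in mutant embryo and control heart replicate 1.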
